A study of Mus musculus with 4 samples.

Results

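Ribosomal protein genes and their named pseudogenes were followed in mouse embryonic stem cells (ESCs) that had been sorted into cells with and without 2-cell-like transcription. The members were the gene symbols made of Rpl or Rps, a number and an optional letter, with or without a -ps ending that marks a named pseudogene, together with Rplp0, Rplp1, Rplp2 and Rpsa. This rule gave 320 of the 24190 symbols listed: 86 without a -ps ending, called ribosomal protein symbols here, and 234 named pseudogenes. Of the 86 symbols, 51 belong to the large ribosomal subunit and 35 to the small one, and 82 are annotated as protein-coding. The other 4, Rps3a2, Rps3a3, Rps4l and Rpl6l, carry a gene-like name but are annotated as pseudogenes.

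The starting cells were E14 (ES-E14TG2a), ESCs of an established line from a male mouse, cultured in serum-free medium containing inhibitors of the kinases MEK and GSK3β. In the GFP line a stably integrated promoter of Zscan4c, a gene of the mouse 2-cell embryo, drove GFP, and in a second line, called the fusion line here, the same promoter drove GFP-Zscan4c, a fusion of both proteins. The design text calls the lines clonal, so each construct is represented by 1 clone. The 4 populations were GFP-positive cells of the GFP line, called 2C-like in the labels, GFP-negative cells of that line, called pluripotent, and the GFP-positive and GFP-negative cells of the fusion line. Each population was sequenced as 1 library of poly-A RNA, so no value below has a replicate error, and no test is possible within a line. The values are TPM, a share of transcripts already divided by transcript length, so levels can be set side by side between genes. Between libraries, a share also depends on what else each library holds, so small differences can change with scaling. Read depth is unknown, because TPM keep no read counts.

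The ribosome is built from a few ribosomal RNAs and a large set of proteins, most of them present once per particle, and ribosomal protein messenger RNAs are among the most abundant in growing cells. Their genes have also left very many processed pseudogenes, intronless copies made from messenger RNA by reverse transcription, scattered through the genome. A read from a recent copy and a read from its parent gene can be identical, so an aligner and a transcript quantifier have to divide such reads between both.

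Before the members, the libraries themselves were compared. All 10 markers of 2C-like cells were 2-fold or more higher in GFP-positive than in GFP-negative cells of each line, with summed levels of 996 against 12.2 TPM in the GFP line and 1593 against 7.01 TPM in the fusion line. The 3 that differed most were Zscan4f, Zscan4d and Tmem92. Zscan4c, Zscan4d and Zscan4f are among the 10, and the cells were sorted on a Zscan4c promoter. The levels of these genes are therefore no independent check of the sort. Whether reads of the GFP-Zscan4c construct were counted for them in the fusion line was not tested. Pou5f1, the core pluripotency factor, was at 1075 TPM in GFP-positive and 1447 TPM in GFP-negative cells of the GFP line. For the fusion line its levels were 1103 and 1138 TPM in GFP-positive and GFP-negative cells. Pou5f1 is 1 of 6 pluripotency markers, all 6 with a row, and they did not all move alike. Their median log2 ratio (TPM + 1, GFP-positive over GFP-negative) was -0.37 for the GFP line, where 0 were 2-fold or more higher and 1 lower. For the fusion line the median was -0.044, with 1 higher and 0 lower. The primitive endoderm markers, of which 3 of 6 had a row, summed to at most 3.07 TPM in any library. The fibroblast or feeder list, with 4 of 6 genes listed, summed to 202 and 310 TPM in GFP-positive and GFP-negative cells of the GFP line. In those of the fusion line it summed to 186 and 8.28 TPM. Nearly all of each sum was Vim, and Col1a2 was at or near 0 in all 4 libraries. In each line 2 of the listed genes reached 5 TPM in either library. Of these, 1 in the GFP line and 2 in the fusion line were 2-fold or more higher in GFP-positive cells, and 0 were lower. In each line 1 of them was listed at 0 in GFP-negative cells. Zeros were unevenly spread: symbols listed at 0 made up 11.8% in GFP-positive and 48.4% in GFP-negative cells of the GFP line, and 11.6% and 19.5% in those of the fusion line. Some results of the GFP line are therefore also given with the fusion line's GFP-negative library in place of its own, an alternative added after the data were seen. They are the summed level and median ratio of the ribosomal protein symbols, and the counts of these symbols and of named pseudogenes 2-fold apart. Other results that rest on the GFP line's GFP-negative library were not recomputed in this way. In bulk samples like these, fewer cells of a type and less RNA per cell cannot be told apart.

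As a group, the ribosomal protein symbols were about as abundant in 2C-like as in pluripotent cells. Their summed level was 82474 TPM in GFP-positive and 90159.7 TPM in GFP-negative cells of the GFP line, a ratio of 0.915. For the fusion line it was 82366 TPM in GFP-positive and 78570.2 TPM in GFP-negative cells, a ratio of 1.05. The 3 libraries other than the GFP line's GFP-negative one lay within a narrow range, and with the fusion line's GFP-negative library as the reference for both lines the first ratio was 1.05 as well. The sums made up 12.1% and 13.4% of all listed TPM in GFP-positive and GFP-negative cells of the GFP line, and 11.9% and 11.8% in those of the fusion line. For the large subunit the GFP-positive to GFP-negative ratio of sums stood at 0.947 for the GFP line and 1.04 for the fusion line, and for the small subunit at 0.872 and 1.06.

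Symbol by symbol, ratios were taken on the log2 scale of TPM + 1, GFP-positive over GFP-negative. The median over the 86 symbols was -0.057 in the GFP line, where all 11062 symbols at 5 TPM or more in either library had a median of 0.19. Over symbols above 0 in both libraries of that line the medians were -0.069 for 84 ribosomal protein symbols and -0.0061 for 8904 symbols in all. In the fusion line it was 0.094, beside 0.14 over 10981 symbols. The median size of a ratio, regardless of sign, was 0.186 for ribosomal protein symbols and 0.649 for all symbols in the GFP line, and 0.122 and 0.25 in the fusion line. Only 7 of the 86 symbols lay 2-fold or more apart in the GFP line, 4 higher and 3 lower in GFP-positive cells, where 33.2% of all symbols were 2-fold higher and 7.48% lower (40.7% either way). Of the same 86, 4 did in the fusion line, 3 higher and 1 lower, against 8.23% higher and 3.14% lower over all symbols (11.4% either way). Both shares of ribosomal protein symbols, 8.14% and 4.65%, were thus below the background of their comparison.

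**Figure D1:**
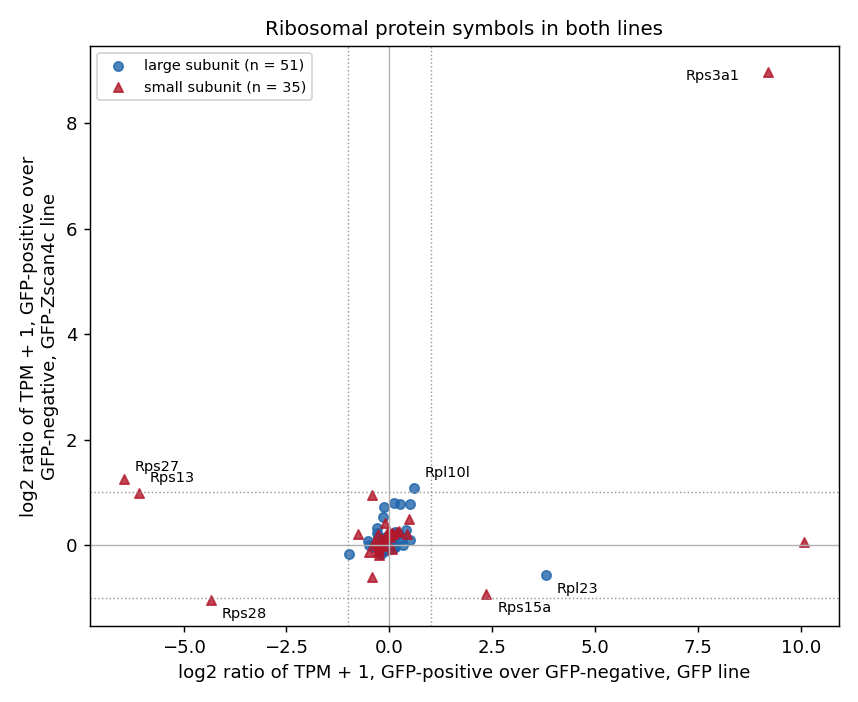
Each point is 1 of the 86 ribosomal protein symbols, with its log2 ratio of TPM + 1 (GFP-positive over GFP-negative) in the GFP line on the x axis and in the fusion line on the y axis; circles are the 51 large-subunit and triangles the 35 small-subunit symbols, and dotted lines mark 2-fold. Of the 86 points 78 lie inside 2-fold in both lines, and 6 of the 8 outside belong to the small subunit.

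A fit over both lines did not call any member. limma was fitted over 14379 symbols with GFP status and line as terms, which leaves 1 residual degree of freedom per gene and uses the disagreement between the lines as its error. No symbol passed at a Benjamini-Hochberg adjusted p under 0.05 (0% of those tested), and 6.76% had an unadjusted p under 0.05. Among the 86 ribosomal protein symbols 5 had an unadjusted p under 0.05, 4 higher and 1 lower, a share near that background. Among 193 named pseudogenes tested 3 did, all lower. The 5 symbols were Rps3a1, Rpl10l, Rpl22l1 and Rps27a, which were higher in GFP-positive cells, and Rps6, which was lower. With quantile normalization limma called 328 of 14379 symbols, among them 5 of the 86 ribosomal protein symbols and 5 of the 193 named pseudogenes. The called members included Rps3a1, Rps27a (adjusted p 0.00974), Rpl10l (adjusted p 0.0137), Rps6 (adjusted p 0.0329) and the pseudogene Rps19-ps5 (adjusted p 0.0311). With 1 residual degree of freedom these p-values do not measure the strength of the evidence. In another fit the fusion line's GFP-negative library was left out, so the GFP line's GFP-negative library stood alone against both GFP-positive ones. The log2 ratios were then 9.09 for Rps3a1, 3.9965 for Rpl23, -4.34 for Rps28, -5.96 for Rps27 and -3.02 for Rpl36-ps9. The spread of a lone GFP-negative library cannot be estimated, so no call of a member is read from that fit.

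The most abundant symbols set the level of the group. Rplp1, a protein of the stalk that recruits elongation factors to the large subunit, had the highest mean, with 4394 TPM in GFP-positive and 4806 TPM in GFP-negative cells of the GFP line and 3694 and 3737 TPM in GFP-positive and GFP-negative cells of the fusion line. Rpl8, a large-subunit protein, was next, at 3735 and 4107 TPM in GFP-positive and GFP-negative cells of the GFP line and 3703 and 3859 TPM in those of the fusion line. Rps12, Rps26 and Rps15, all of the small subunit, were also among the 6 highest, each between 2134 and 3047 TPM in every library. Their log2 ratios ran from -0.28 to 0.05 over both lines. The median symbol lay at 794 TPM in GFP-positive and 850 TPM in GFP-negative cells of the GFP line and at 798 and 738 TPM in GFP-positive and GFP-negative cells of the fusion line, and 75 of the 86 were at 100 TPM or more in all 4 libraries.

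Members with roles beyond the structure of the ribosome were close to level as well, with Rpl23, Rps6 and Rps19 as exceptions. Rplp0, the base of the stalk, was at 1205 and 1320 TPM in GFP-positive and GFP-negative cells of the GFP line and at 1068 and 1073 TPM in those of the fusion line. Its partner Rplp2 had log2 ratios of 0.01 and -0.07, in the GFP line and the fusion line in that order. Rpsa, a small-subunit protein whose gene is also known as the laminin receptor, had log2 ratios of -0.26 in the GFP line and -0.10 in the fusion line. Rpl5 and Rpl11, which with 5S ribosomal RNA bind Mdm2, the inhibitor of p53, were at 449 and 643 TPM in GFP-positive cells, against 407 and 784 TPM in GFP-negative cells, of the GFP line. Rpl5 and Rpl11 of the fusion line were at 477 and 693 TPM in GFP-positive cells, against 402 and 612 TPM in GFP-negative cells. Rps19, the small-subunit protein most often mutated in Diamond-Blackfan anaemia, went opposite ways in the lines: 476 TPM in GFP-positive and 640 TPM in GFP-negative cells of the GFP line, but 997 TPM in GFP-positive and 512 TPM in GFP-negative cells of the fusion line.

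Of the 86 symbols 26 (30.2%) were higher and 20 (23.3%) lower in GFP-positive cells of both lines, beside 45.4% and 16.4% of the 10245 symbols at 5 TPM or more in either library of each line. Among those higher, Rpl22l1, a paralogue of Rpl22, was at 66.0 TPM in GFP-positive and 46.3 TPM in GFP-negative cells of the GFP line and at 112 and 64.2 TPM in GFP-positive and GFP-negative cells of the fusion line (limma log2 0.64, SE 0.187, unadjusted p 0.0340, adjusted p 0.621). Rpl22 itself was level, at 246 and 243 TPM in GFP-positive and GFP-negative cells of the GFP line and 273 and 253 TPM in those of the fusion line. Rps27a, whose product is made as a fusion to ubiquitin, was at 546 TPM in GFP-positive and 391 TPM in GFP-negative cells of the GFP line. The fusion line had it at 727 TPM in GFP-positive and 518 TPM in GFP-negative cells, and both lines gave a log2 ratio within 0.48 to 0.49 (limma SE 0.114, unadjusted p 0.0180, adjusted p 0.471). The next in order were Rpl35a, Rpl6l, Rps25 and Rps24, whose log2 ratios ran from 0.22 to 0.78 over both lines.

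Among those lower in both lines, Rps6, the small-subunit protein phosphorylated by S6 kinase downstream of mTOR, was at 343 TPM in GFP-positive and 459 TPM in GFP-negative cells of the GFP line and at 369 and 565 TPM in GFP-positive and GFP-negative cells of the fusion line (limma log2 -0.52, SE 0.129, unadjusted p 0.0221, adjusted p 0.509). Rpl10a was at 403 TPM in GFP-positive and 789.6 TPM in GFP-negative cells of the GFP line, but at 603 and 674 TPM in GFP-positive and GFP-negative cells of the fusion line, so the GFP line's GFP-positive library was the lowest of the 4 and its GFP-negative library the highest. Rps4l, Rpl41, Rps15 and Rpl37 had log2 ratios between -0.10 and -0.28 over both lines.

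Several ribosomal proteins have a second gene, often a retrogene with expression in the testis. Rpl10l is an autosomal retrogene of the X-linked Rpl10 and takes its place in male meiosis, and it was higher in GFP-positive cells of both lines. Rpl10l was at 97.8 TPM in GFP-positive and 64.4 TPM in GFP-negative cells of the GFP line and at 112 TPM in GFP-positive and 52.5 TPM in GFP-negative cells of the fusion line. For Rpl10l limma gave a log2 ratio of 0.84 (SE 0.210, unadjusted p 0.0236, adjusted p 0.525). The naming rule picks it for its increase in both lines, a direction shared by 45.4% of all symbols at 5 TPM or more in either library of each line. Rpl10 was at 357 TPM in GFP-positive and 501 TPM in GFP-negative cells of the GFP line and at 545 and 547 TPM in those of the fusion line, so the X-linked gene showed no such difference. Rpl39l, a testis-enriched paralogue of the X-linked Rpl39, was the lowest of the 86 by mean, at 25.8 and 28.1 TPM in GFP-positive and GFP-negative cells of the GFP line and 45.5 and 27.1 TPM in those of the fusion line. In that second line Rpl39 and Rpl39l had log2 ratios of 0.80 and 0.73, while in the GFP line they had 0.10 and -0.12. Rpl7l1 was at 72.4 and 81.2 TPM in GFP-positive and GFP-negative cells of the GFP line and 86.8 and 59.8 TPM in those of the fusion line, and its relative Rpl7 was higher in GFP-positive cells by 0.24 and 0.20 on the log2 scale in the GFP line and the fusion line. Rps4x and Rps4l had log2 ratios between -0.25 and 0.19, and Rpl3l had no row.

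Besides Rpl10l, differences of 2-fold or more are described for Rps3a1, Rps28, Rps27, Rps13, Rps15a and Rpl23. Of these, Rps13 and Rps15a lie outside the rule for named genes and were chosen after their values were seen.

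**Figure D2:**
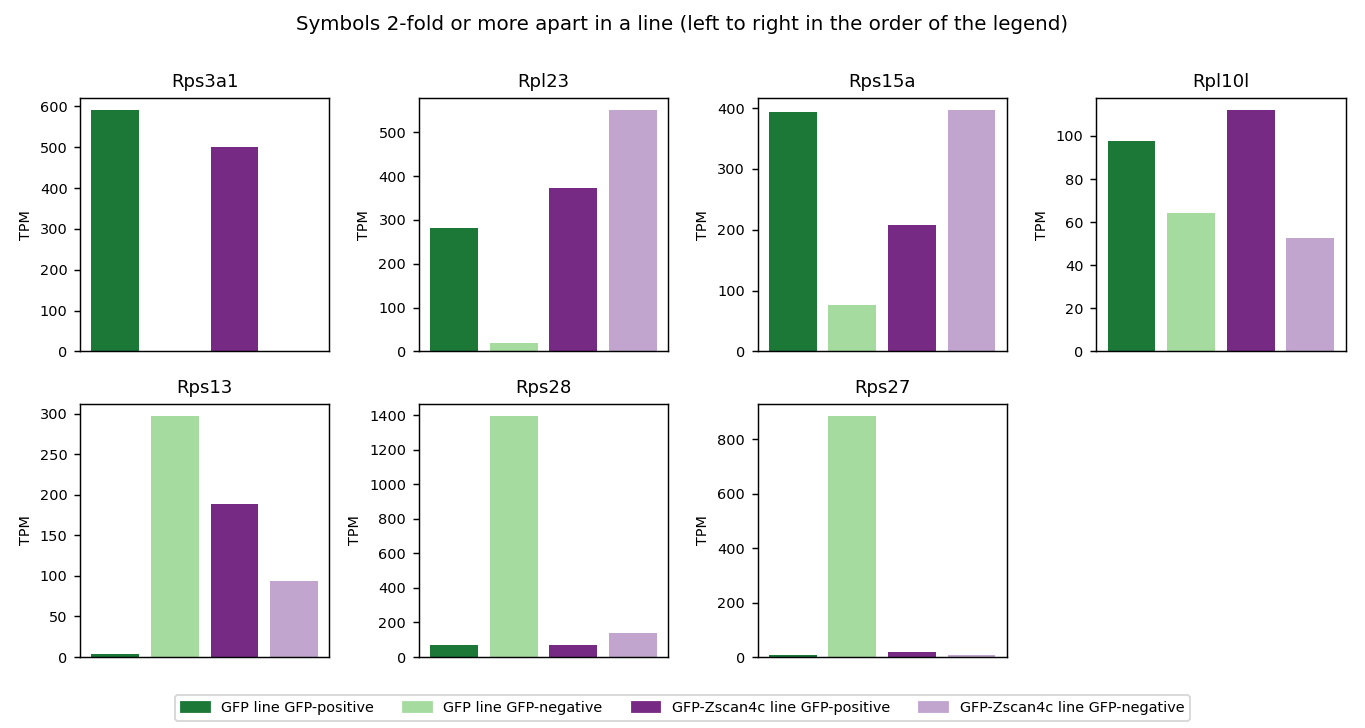
TPM of 7 of the 8 symbols that lay 2-fold or more apart in at least 1 line, 1 bar per library in the order GFP-positive and GFP-negative of the GFP line, then GFP-positive and GFP-negative of the fusion line; each panel has its own axis starting at 0. Rps3a1 is listed at 0 in both GFP-negative libraries, while for Rpl23, Rps15a, Rps28 and Rps27 the GFP line's GFP-negative library is the one that differs most from the others.

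Rps3a1, the gene of a small-subunit protein near the site where messenger RNA leaves the ribosome (chr3:86137940-86142702, minus strand, GRCm38), was the one symbol 2-fold or more higher in GFP-positive cells of both lines. For the GFP line it was at 591 TPM in GFP-positive cells and listed at 0 in GFP-negative cells, and for the fusion line at 500 TPM in GFP-positive cells and again listed at 0 in GFP-negative cells. It has 1 annotated transcript, which is listed. Against values listed at 0, the pseudocount sets the size of a log2 ratio. On the log2 scale of TPM + 1 limma gave 9.09 (SE 0.308, unadjusted p 2.95e-05, adjusted p 0.397). With a pseudocount of 0.1 TPM the log2 ratio was 12.4, and with 5 TPM it was 6.78, so none of these is read as a fold change. The adjusted p was 0.0234 with a pseudocount of 5 TPM and 0.0317 over symbols with a mean of 10 TPM or more. Under quantile normalization it was 5.92e-101. A value that small, from 4 libraries with 1 residual degree of freedom, does not measure the strength of the evidence. When each library was left out in turn, the log2 ratio lay between 8.97 and 9.21. With both GFP-negative values listed at 0, this range can only reflect the GFP-positive levels. It is therefore no check of the zeros. An exact 0 for a protein that every ribosome carries can be a failed estimate, so it is not read as absence.

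The relatives of Rps3a1 were read in all 4 libraries. Rps3a2 (chr14:88123017-88123808, minus strand) was at 315 and 302 TPM in GFP-positive and GFP-negative cells of the GFP line and at 328 and 278 TPM in those of the fusion line. Rps3a3 (chr13:108670603-108671397, plus strand) was at 584 and 515 TPM in GFP-positive and GFP-negative cells of the GFP line and at 608 and 509 TPM in those of the fusion line. Another 2 copies found by sequence added 298 and 302 TPM, then 307 and 262 TPM, in the same order. With the parent, Rps3a2, Rps3a3 and these copies, the sum was 1788 TPM in GFP-positive and 1118 TPM in GFP-negative cells of the GFP line and 1742 and 1049.7 TPM in GFP-positive and GFP-negative cells of the fusion line, log2 ratios of 0.68 and 0.73. Whether reads of the parent were given to its relatives was not tested. Only 28.99% of the 50-base windows of Rps3a1 occur in no other annotated gene, the reason its sequence is shown beside those of its 2 relatives (90 bases of the coding sequence, from base 580 to base 669 of the parent, GENCODE transcripts; capitals mark differences from Rps3a1).

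Rps3a1: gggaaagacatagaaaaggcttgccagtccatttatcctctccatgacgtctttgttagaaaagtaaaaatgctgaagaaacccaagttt
Rps3a2: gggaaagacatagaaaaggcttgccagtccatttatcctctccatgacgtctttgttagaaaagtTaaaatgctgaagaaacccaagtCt
Rps3a3: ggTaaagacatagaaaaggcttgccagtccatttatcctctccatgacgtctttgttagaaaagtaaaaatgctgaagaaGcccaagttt

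Over the whole coding sequence Rps3a2 differed from Rps3a1 at 4 of 792 aligned bases and Rps3a3 at 9 of 795.

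Rps28 and Rps27, both of the small subunit, were high in the GFP line's GFP-negative library and low in the other 3. Rps28 (chr17:33819027-33824562, minus strand) was at 68.1 TPM in GFP-positive and 1395 TPM in GFP-negative cells of the GFP line and at 67.6 and 140 TPM in GFP-positive and GFP-negative cells of the fusion line. Its log2 ratios were -4.34 and -1.04, in the GFP line and the fusion line, and it was the only ribosomal protein symbol 2-fold or more lower in both (limma log2 -2.69, SE 0.916, unadjusted p 0.0539, adjusted p 0.683). A single transcript, ENSMUST00000173844, held 1217 TPM of the level in the GFP line's GFP-negative library and was listed at 0 in the other 3. The 8 copies of Rps28 found by sequence, none of them with a -ps name, were level in all libraries, summing to 1171 and 1109 TPM in GFP-positive and GFP-negative cells of the GFP line and 1141 and 1042 TPM in those of the fusion line. In 3 of the 4 libraries the copies thus held more of the family than the gene.

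Rps27 (chr3:90212522-90213651, minus strand), the gene of a zinc-finger protein of the small subunit, was at 9.21 TPM in GFP-positive and 887 TPM in GFP-negative cells of the GFP line and at 18.9 and 7.30 TPM in GFP-positive and GFP-negative cells of the fusion line. Its transcript ENSMUST00000170122 held 807 TPM in the GFP line's GFP-negative library and was listed at 0 elsewhere. In the other 3 libraries Rps27 was far below Rps27rt, a copy annotated as protein-coding on chromosome 9 and left out by the naming rule, which was at 184 and 186 TPM in GFP-positive and GFP-negative cells of the GFP line and 182 and 149 TPM in those of the fusion line. Rps27l, the paralogue induced by p53, was at 207 and 222 TPM in GFP-positive and GFP-negative cells of the GFP line and 223 and 167 TPM in those of the fusion line. Summed with Rps27rt, the named pseudogene and 4 other copies, Rps27 was at 320.2 TPM in GFP-positive and 1194 TPM in GFP-negative cells of the GFP line and at 313 and 215 TPM in those of the fusion line. The coding sequence of Rps27rt is identical to that of Rps27 over all 255 bases, while Rps27l differs at 52 of 250 aligned bases. The differences of Rps27l are shown in 90 bases from coding base 49 to 138 (capitals mark differences from Rps27).

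Rps27: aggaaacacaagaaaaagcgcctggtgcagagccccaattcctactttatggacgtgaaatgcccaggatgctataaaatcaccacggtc
Rps27l: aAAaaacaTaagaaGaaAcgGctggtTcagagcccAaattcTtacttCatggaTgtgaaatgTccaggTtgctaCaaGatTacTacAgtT

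Rps13, Rps15a and Rpl23 went opposite ways in the lines. Rps13 (chr7:116331505-116334195, minus strand), of the small subunit, was at 3.41 TPM in GFP-positive and 297 TPM in GFP-negative cells of the GFP line but at 188 and 94.1 TPM in GFP-positive and GFP-negative cells of the fusion line. Different transcripts carried those values: ENSMUST00000205490 held 295 TPM in the GFP line's GFP-negative library, while ENSMUST00000170953 held 185 and 91.3 TPM in GFP-positive and GFP-negative cells of the fusion line and was listed at 0 in both libraries of the GFP line. The 6 named pseudogenes of Rps13 outweighed it in every library, at 544 and 575 TPM in GFP-positive and GFP-negative cells of the GFP line and 641 and 481 TPM in those of the fusion line.

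Rps15a, a small-subunit protein gene also on chromosome 7 (chr7:118104372-118116188, minus strand), was at 394 TPM in GFP-positive and 76.2 TPM in GFP-negative cells of the GFP line, and at 208 TPM in GFP-positive and 396 TPM in GFP-negative cells of the fusion line. Its transcript ENSMUST00000106588 was at 244 TPM in GFP-positive cells and listed at 0 in GFP-negative cells of the GFP line, and at 47.0 and 206 TPM in GFP-positive and GFP-negative cells of the fusion line. One of its 8 pseudogenes, Rps15a-ps6, was high in the same libraries, with 172 and 68.6 TPM in GFP-positive and GFP-negative cells of the GFP line and 8.39 and 138 TPM in those of the fusion line. Another, Rps15a-ps2, went the other way, with log2 ratios of -1.05 in the GFP line and 1.59 in the fusion line. The 8 together were at 584 and 446 TPM in GFP-positive and GFP-negative cells of the GFP line and 402 and 435 TPM in those of the fusion line. Rpl23 (chr11:97777527-97782437, minus strand), a large-subunit protein that can also bind Mdm2, was at 281 TPM in GFP-positive and 19.3 TPM in GFP-negative cells of the GFP line and at 372 and 550.2 TPM in GFP-positive and GFP-negative cells of the fusion line. Its 3 copies found by sequence summed to 748 and 640.0 TPM in GFP-positive and GFP-negative cells of the GFP line and 842 and 699 TPM in those of the fusion line, and Gm9794 (chr6:66875321-66875743, minus strand) held most of this. Gm9794 differs from Rpl23 at 1 of 423 coding bases, which lies in the stretch from coding base 166 to 255 (the capital marks it).

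Rpl23: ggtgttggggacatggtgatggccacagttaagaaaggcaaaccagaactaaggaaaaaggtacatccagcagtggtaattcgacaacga
Gm9794: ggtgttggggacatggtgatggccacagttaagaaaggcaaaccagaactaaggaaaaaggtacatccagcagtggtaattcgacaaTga

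**Figure D3:**
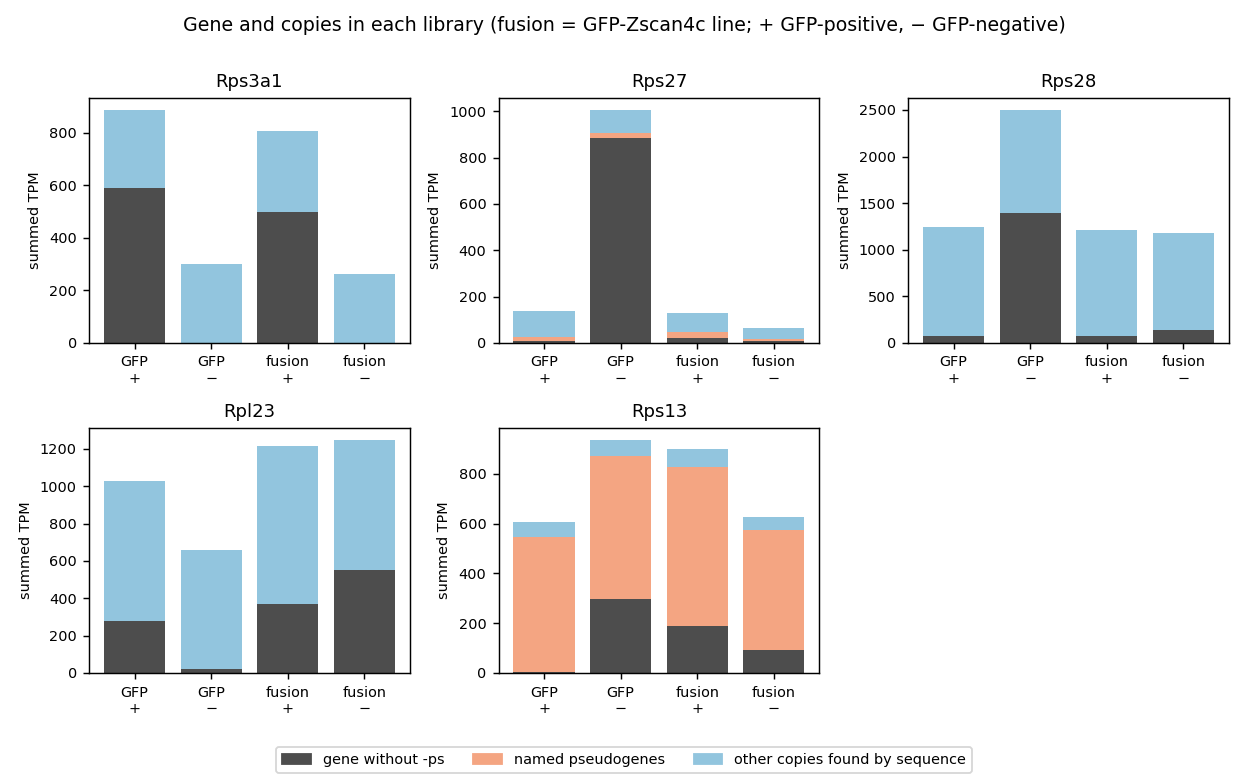
Summed TPM of 5 genes (dark), their named pseudogenes (orange) and other copies found by sequence (blue) in each library, with GFP-positive left of GFP-negative in the GFP line and then in the fusion line (fusion); Rps3a2, Rps3a3 and Rps27rt are not included. The copies of Rps3a1, Rps28 and Rpl23 keep a similar height in the 4 libraries while the dark part changes.

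The share of 50-base windows found in no other annotated gene had a median of 81.9% in the 8 symbols past 2-fold in a line, with a range of 28.99% to 94.9%, against 74.5% in the other 78, with a range of 9.83% to 100%. Unlisted transcripts touched 3 of the 8 and 34 of the other 78. Changes of leading transcript, the one with the most TPM of its symbol, occurred outside the 8 too. Of 62 symbols with 2 or more listed transcripts, 52 had the same leading transcript in all 4 libraries. Rps9, chosen after its values were seen, kept its total within 2-fold while its transcripts changed places: ENSMUST00000006496 was at 66.8 TPM in GFP-positive and 1207 TPM in GFP-negative cells of the GFP line, and ENSMUST00000108625 at 912 and 374 TPM. In the fusion line the same transcripts were at 115 and 953 TPM in GFP-positive cells, against 19.0 and 906 TPM in GFP-negative cells.

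Parents were also summed with their pseudogenes, which dilutes a parent's difference wherever the pseudogenes are level, whether or not reads were divided differently. The 56 families with a parent and at least 1 named pseudogene had a median log2 ratio of -0.058 for the sums in the GFP line and 0.073 in the fusion line, beside -0.029 and 0.084 for the parents alone. In the GFP line 4 of these parents lay 2-fold or more apart, and 2 families, Rps27 among them, still did after summing. The fusion line had 1 such parent and 1 such family. Parent and pseudogenes moved opposite ways by 0.25 or more each in 1 family of the GFP line and in 0 of the fusion line. Over the 80 families that also counted unnamed copies, 7 parents and 4 sums lay 2-fold or more apart in the GFP line, and 4 parents and 2 sums in the fusion line.

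The named pseudogenes carried 23698 TPM in GFP-positive and 24637 TPM in GFP-negative cells of the GFP line, a ratio of 0.962, and 23447 and 22324 TPM in GFP-positive and GFP-negative cells of the fusion line, a ratio of 1.05. These sums were 3.35% to 3.66% of all listed TPM. Of the 234, 175 reached 10 TPM in at least 1 library and 34 stayed under 1 TPM in all 4. Rps16-ps2 was the highest by mean, at 948 and 964 TPM in GFP-positive and GFP-negative cells of the GFP line and 998 and 973 TPM in those of the fusion line, close to its parent Rps16 at 1067 and 1167 TPM, then 1038 and 1042 TPM, in that order. Rps10-ps2 was at 783 and 979 TPM in GFP-positive and GFP-negative cells of the GFP line and 739 and 737 TPM in those of the fusion line, less than its parent Rps10 in every library. Of others among the 12 highest, Rpl10a-ps1 and Rps6-ps4 had log2 ratios no larger than 0.15 in size, and Rps6-ps4 was above its parent Rps6 in GFP-positive and GFP-negative cells of the GFP line and in GFP-positive cells of the fusion line. Rps18-ps3 was at 347 TPM in GFP-positive and 759 TPM in GFP-negative cells of the GFP line but at 334 and 332 TPM in those of the fusion line.

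Many differences among pseudogenes rested on 1 library. Of 185 pseudogenes at 5 TPM or more in either library of the GFP line, 6 were 2-fold or more higher in GFP-positive cells and 37 lower, beside 33.2% and 7.48% of all symbols. In the fusion line 8 of 160 were higher and 11 lower, beside 8.23% and 3.14%. With the fusion line's GFP-negative library as the reference, the GFP line had 8 higher and 9 lower of 161. A set of 20 pseudogenes was at 10 TPM or more in the GFP line's GFP-negative library and under 5 TPM in the other 3, and no other library had any pseudogene of that kind. How many of all symbols met the same bounds in each library was not counted, so this is not read as a trait of pseudogenes. These 20 summed to 46.2 TPM in GFP-positive and 443 TPM in GFP-negative cells of the GFP line. In those of the fusion line they summed to 46.0 and 48.6 TPM. The way the 20 were chosen fixes the direction of that difference. Rpl31-ps11 was the highest of them, at 2.89 TPM in GFP-positive and 107 TPM in GFP-negative cells of the GFP line, then 3.62 and 3.15 TPM in those of the fusion line. Their identity to the parent ran from 86.5% to 98.7%, with a median of 93.3%.

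**Figure D4:**
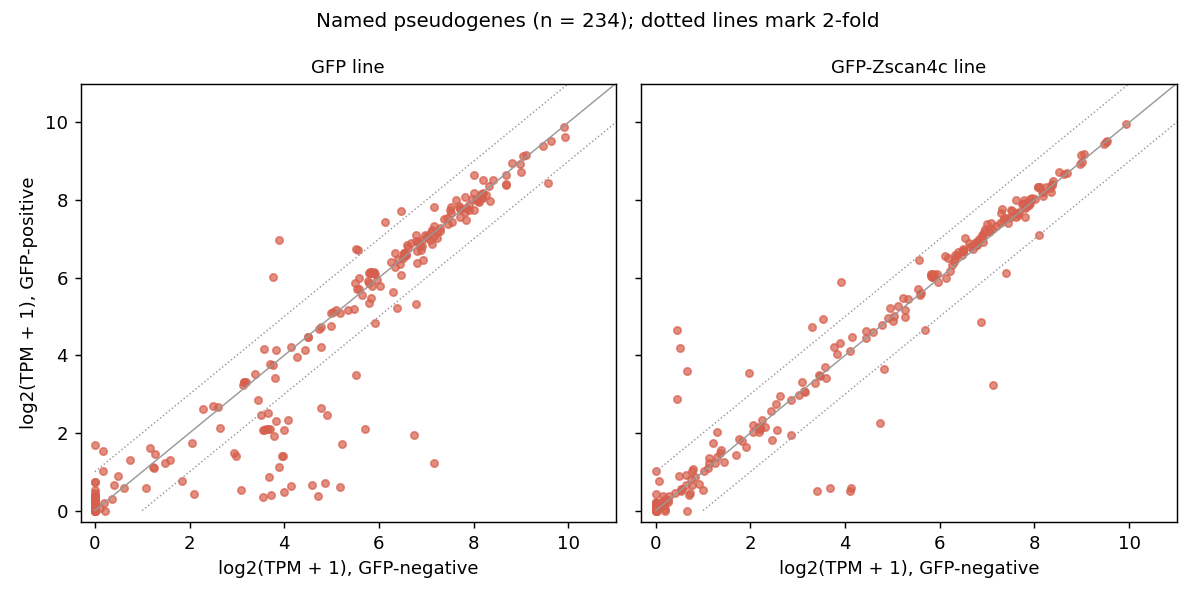
Each point is 1 of the 234 named pseudogenes, with log2(TPM + 1) in GFP-negative cells on the x axis and in GFP-positive cells on the y axis, in the GFP line (left) and the fusion line (right); the solid line marks equal levels and the dotted lines 2-fold. In the GFP line 37 of 185 tested points lie below the lower dotted line and 6 above the upper one, and in the fusion line 11 and 8 of 160 do.

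Of 160 pseudogenes at 5 TPM or more in either library of each line, 66 were higher and 26 lower in GFP-positive cells of both lines, which is 41.2% and 16.2%, beside 45.4% and 16.4% of all 10245 such symbols. The 3 with an unadjusted limma p under 0.05 were all lower, and they are described here, a choice made after their values were seen. Rps12-ps19 (chromosome 11) was at 1.33 TPM in GFP-positive and 143 TPM in GFP-negative cells of the GFP line and at 28.1 and 115 TPM in GFP-positive and GFP-negative cells of the fusion line (limma log2 -3.97, SE 1.11, unadjusted p 0.0318, adjusted p 0.604). Rpl36-ps9 (chromosome 5) was at 1.18 and 13.7 TPM in GFP-positive and GFP-negative cells of the GFP line and 0.505 and 11.8 TPM in those of the fusion line (adjusted p 0.584 by limma). Rps19-ps5 (chromosome 15) was at 27.3 and 59.7 TPM in GFP-positive and GFP-negative cells of the GFP line and 11.5 and 27.2 TPM in those of the fusion line, so the GFP-positive level of the first line and the GFP-negative level of the second met (adjusted p 0.467 by limma).

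The level of a pseudogene went with its likeness to the parent. For 230 of the 234 an alignment to a ribosomal protein transcript was found, the best one to the parent in its name for 228, and the median identity was 96.5%. Mean TPM over the 4 libraries had a median of 0.607 for the 30 pseudogenes under 90% identity, 7.01 for the 65 from 90% to 95%, 23.7 for the 47 from 95% to 98%, 109 for the 38 from 98% to 99%, and 191 for the 50 at 99% or more. Spearman's rho across the 230 pseudogenes was 0.80, a description only, since they share parents, reads and libraries. The pseudogenes lower among GFP-positive cells of the GFP line were mostly in the less similar classes: 4 of 8 tested under 90%, 18 of 42 from 90% to 95%, 10 of 45 from 95% to 98%, 3 of 38 from 98% to 99% and 1 of 50 at 99% or more. Over all symbols 7.48% were lower. In the fusion line 2 of 5, 6 of 31, 7 of 36, 3 of 36 and 1 of 50 in these classes were 2-fold or more apart either way, beside 11.4% of all symbols. The less similar classes also had the lower levels, and whether the differences follow identity or level was not tested.

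**Figure D5:**
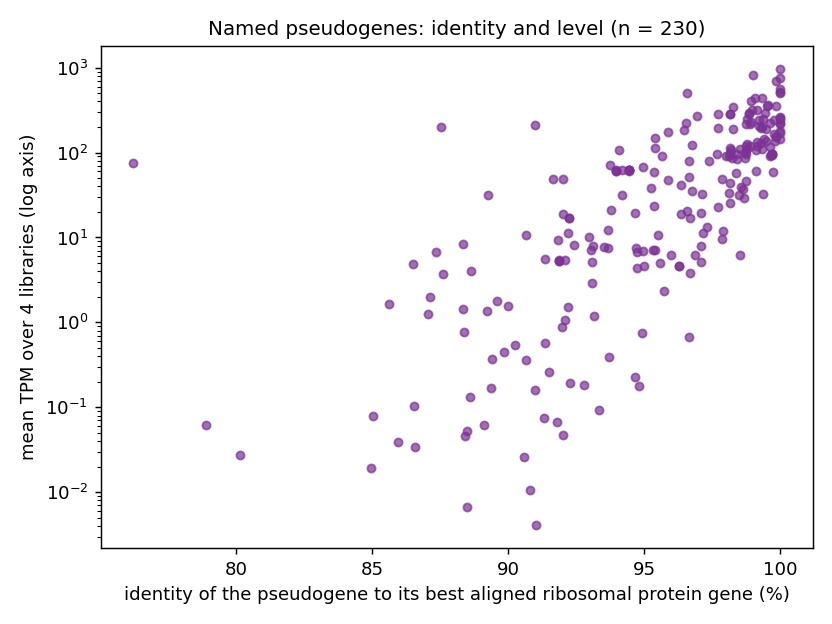
Each point is 1 of 230 named pseudogenes, with the percent identity of its transcript to the best aligned ribosomal protein gene on the x axis and its mean TPM over the 4 libraries on the y axis (log axis). Levels are widely spread below 95% identity, and all 50 pseudogenes at 99% or more have a mean of at least 32.2 TPM.

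Some pseudogenes with like identity to the same parent were given like values, in examples chosen after their values were seen. Pseudogenes were not compared in sequence with each other. Likeness did not always go with like values: Rps27 and Rps27rt, identical in coding sequence, were far apart in level. Rps19-ps1 and Rps19-ps2 were both at 265 TPM in GFP-positive and 287 TPM in GFP-negative cells of the GFP line and both at 324 and 268 TPM in those of the fusion line. Rpl35a-ps2, Rpl35a-ps3, Rpl35a-ps4 and Rpl35a-ps6, each 99.7% identical to Rpl35a, lay between 97.4 and 98.1 TPM in GFP-positive cells and between 91.9 and 92.9 TPM in GFP-negative cells of the GFP line. Rps12 had the most named pseudogenes, 22, of which Rps12-ps11 to Rps12-ps18 were all between 67.3 and 69.7 TPM in GFP-positive and between 54.7 and 59.3 TPM in GFP-negative cells of the GFP line. Their identity to Rps12 ran from 94.0% to 94.4%. Rps12-ps19, at 93.7%, was at 1.33 and 143 TPM in GFP-positive and GFP-negative cells of that line.

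Pseudogenes without a -ps name held more than those with one. A search by sequence found 614 symbols annotated as pseudogenes whose transcript aligned to a ribosomal protein transcript at 90% identity or more over 70% of its length or more. They summed to 40970 TPM in GFP-positive and 43608 TPM in GFP-negative cells of the GFP line and to 39806 and 37895 TPM in GFP-positive and GFP-negative cells of the fusion line. Gm11942, a copy of Rplp1, was the highest, at 1211 and 1345 TPM in GFP-positive and GFP-negative cells of the GFP line and 894 and 1034 TPM in those of the fusion line. Others among the 8 highest were Gm4332 (Rps20), Gm14303 (Rps29), Gm28911 (Rpl8), Gm11478 (Rpl13a), Gm8730 (Rplp0) and Gm9794 (Rpl23), each between 616 and 1068 TPM in every library and within 0.31 on the log2 scale in both lines. Genes, named pseudogenes and these copies together made up 21.5% and 23.5% of all listed TPM in GFP-positive and GFP-negative cells of the GFP line and 21.1% and 20.8% in those of the fusion line.

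Set against each other, the constructs gave similar levels in GFP-positive cells. The summed level of the ribosomal protein symbols in the fusion line was 0.999 of that in the GFP line among GFP-positive cells, and 0.871 among GFP-negative cells. In GFP-positive cells 2 of 86 symbols were 2-fold or more higher in the fusion line and 0 lower, beside 5.71% and 4.05% of all symbols (9.76% either way). They were Rps13, at 188 TPM in the fusion line against 3.41 TPM in the GFP line, and Rps19, at 997 against 476 TPM. In GFP-negative cells 3 of 85 were higher and 3 lower, beside 30.1% and 8.49% of all symbols (38.6% either way), and all 6 were among the 8 symbols past 2-fold between GFP-positive and GFP-negative cells of a line. This comparison uses the same libraries as the ones above, so it adds no separate measurement.

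Genes that work with the ribosomal proteins were listed as well. Ribosome assembly factors, the proteins that process ribosomal RNA and fold it with ribosomal proteins, had 32 of 120 tested members 2-fold or more higher and 0 lower among GFP-positive cells of the GFP line, beside 33.2% and 7.48% of all symbols, with a median log2 ratio of 0.32 beside 0.19 over all symbols. Of those 120, 16 had a listed value of 0 in the GFP-negative library, among them Xpo1, the export receptor of pre-ribosomes, at 73.0 TPM in GFP-positive cells, Utp20 at 54.4 TPM and Rrp12 at 39.6 TPM. In the fusion line, where none was listed at 0, 1 of 119 was higher and 0 lower, beside 8.23% and 3.14% of all symbols, with a median of 0.17 beside 0.14 over all symbols, and Xpo1 was at 71.7 and 55.6 TPM in GFP-positive and GFP-negative cells. RNA polymerase I, which transcribes ribosomal RNA, and its factors had 4 higher and 1 lower of 21 in the GFP line, beside 33.2% and 7.48% of all symbols, and 3 higher and 0 lower of 23 in the fusion line, beside 8.23% and 3.14%. Ttf1, the termination factor of this polymerase, was at 4.56 TPM in GFP-positive cells and listed at 0 in GFP-negative cells of the GFP line, and at 9.37 and 3.58 TPM in those of the fusion line. Cd3eap and Polr2k were likewise listed at 0 in that GFP-negative library, and in the fusion line they had log2 ratios of 0.04 and 0.19.

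Mitochondrial ribosomal proteins, which build the separate ribosome of mitochondria, had 14 higher and 2 lower of 77 in the GFP line, beside 33.2% and 7.48% of all symbols, and 0 higher and 1 lower of 76 in the fusion line, beside 8.23% and 3.14%. Mrpl32, Mrps27 and Mrpl55, listed at 0 in the GFP line's GFP-negative library, had log2 ratios of 0.59, 0.13 and 0.33 in the fusion line. Of 4 cytosolic ribosomal proteins that the naming rule leaves out, 3 had a row, and none of them was 2-fold apart. Fau, in which a ubiquitin-like protein is joined to a small-subunit protein, was at 1205 and 1399 TPM in GFP-positive and GFP-negative cells of the GFP line and 1326 and 1239 TPM in those of the fusion line. Rpl36al, a paralogue of Rpl36a, had log2 ratios of -0.39 in the GFP line and 0.18 in the fusion line.

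Ribosomal protein messenger RNAs are known to begin with a C and a run of pyrimidines, through which mTOR signalling controls their translation. In RefSeq's promoter sequences (GRCm38.p6), 62 of the 86 symbols were found. A C followed by 4 or more letters C or T, on the sense strand and within 2 bases of the annotated start, was present in 21 of the 62 (33.9%) and in 2863 of all 27025 genes of that table (10.6%). Poly-A RNA levels, as measured here, do not report on that translation.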

How the data were processed

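Members and lists were chosen with earlier results of these data known. Each library's deposited table gives TPM per transcript, made by the authors with CASAVA, HISAT2 2.1.0 and StringTie 1.3.5 on GRCm38 (mm10), per the submitters' processing notes, which give no options. All 4 tables list the same 58853 transcripts, 604 of them of members, and sum to 66.6% to 69.1% of what a complete TPM table would hold. TPM were summed per symbol. Ratios are log2(TPM + 1), which understates changes of low genes, and symbols at 5 TPM or more in either library were counted as apart at 2-fold. limma 3.58.1 (R 4.3.3; eBayes with trend and robust, two-sided, Benjamini-Hochberg) used symbols reaching 1 TPM in 2 or more libraries. The labels name no separate cultures, so the spread behind a p-value may be technical. GENCODE M21 gave positions and types for 319 of 320 members. Copies were found with BLAST 2.17.0. Genes were named by a rule (zeros, largest changes in both lines, highest levels, fixed paralogue pairs, 12 highest pseudogenes, 8 highest copies, 3 genes per list); others are marked as chosen after their values were seen. Alternatives covered scaling, pseudocount, filters and left-out libraries. Some members and genes were withheld and are not reported here, although they stay in the counts and sums.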

Additional observations from a re-analysis of the deposited data

Results flagged for a closer look

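For 8 members, 4 genes and 4 pseudogenes, the GFP-positive to GFP-negative difference was 2-fold or more in 1 line and over 0.5 (log2) the other way in the other. With 1 library per population the difference between the lines was not tested. On the log2 scale of TPM + 1, GFP line before fusion line, the ratios were 3.79 and -0.56 for Rpl23, -6.08 and 0.99 for Rps13, 2.35 and -0.93 for Rps15a, and -6.44 and 1.26 for Rps27. Among pseudogenes they were 0.65 and -1.01 for Rpl18-ps2, -2.81 and 3.66 for Rpl31-ps7, -1.05 and 1.59 for Rps15a-ps2, and 1.31 and -3.89 for Rps15a-ps6. Read depth is unknown, and the GFP line's GFP-negative library, where 48.4% of symbols were listed at 0, enters every first value.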

How the results depend on the processing

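Of 60 values under alternatives, 45 stayed within 0.1 on the log2 scale or, for counts, within 1.5 times. Under median-ratio scaling the fusion line had a parent ratio of 0.939, a pseudogene ratio of 0.940, a parent median of -0.065 and a family median of -0.086; the median of all symbols moved from 0.14 to -0.0073 there, and parents minus all symbols was -0.050 as deposited and -0.058 scaled. Under quantile normalization the GFP line's parent median was 0.084 and its family median 0.080, while the median of all symbols moved from 0.19 to 0.0081; parents minus all was -0.25 as deposited and 0.076 normalized, so its sign depends on this choice. A pseudocount of 5 TPM left 2 parents apart in the fusion line. With the other line's GFP-negative library as reference (chosen after seeing the data), the GFP line had a parent ratio of 1.05, a parent median of 0.094, 3 parents apart and 17 pseudogenes apart. limma called 3 symbols with a pseudocount of 5 TPM, 3 over symbols with a mean of 10 TPM or more (Rps3a1 among the members each time), 328 under quantile normalization (5 ribosomal protein symbols and 5 pseudogenes), and 0 to 4204 with a library left out. The 4204 came without the fusion line's GFP-negative library, where the lone GFP-negative library is assumed to vary like the GFP-positive pair; the cause of the moves was not tested. No paired analysis was possible because each population has 1 library; line is already a term of the fit.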
